A study of Homo sapiens with 6 samples.

Results

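Gene deserts are stretches of the genome that lie far from any protein-coding gene, and the peaks of N6-methyladenine (6mA) immunoprecipitation whose summits fell in them were examined in MDA-MB-453 cells, an established breast cancer cell line. A peak was taken as a desert peak when its summit, the position of highest enrichment, lay on chromosomes 1 to 22, at least 500 kb from the nearest start site of a protein-coding transcript and outside every protein-coding gene body (GENCODE release 44 on GRCh37, the assembly also called hg19). The rule took 13860 of the 138804 autosomal peaks and of the 143552 peaks on all chromosomes. The 4 peak lists came from 2 control libraries, made from cells transfected with scramble siRNA, and 2 si-N6AMT1 libraries, made from cells transfected with siRNA against N6AMT1, all at 10 nM for 48 h. N6AMT1 is a methyltransferase that acts on a translation release factor and has been proposed to place 6mA in human DNA. The libraries hold genomic DNA only, so the level of N6AMT1 itself could not be checked in them, and all 4 came from 1 cell line. The desert lists held 3012 peaks for control replicate 1, 3382 for control replicate 2, 3527 for si-N6AMT1 replicate 1 and 3939 for its replicate 2.

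The modification 6mA adds a methyl group to adenine. It is abundant in bacteria, and its level in mammalian nuclear DNA is debated. Immunoprecipitation enriches DNA fragments bound by an antibody against 6mA, and a peak is a place where such fragments pile up above a local background. Gene deserts are in general poor in G and C, rich in repeats and late to replicate, and some hold distant enhancers of developmental genes that flank them. Cadherins and protocadherins, which join cells to each other, are among the genes that often border such deserts.

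The deserts covered 274 Mb of assembled sequence, 10.2% of the 2685 Mb of the autosomes, in 366 intervals, of which 359 held assembled bases. Their GC content was 36.3%, against 41.5% in the rest of the autosomes. The distance rule does not remove long noncoding RNA genes: their bodies covered 28.7% of desert bases and held 27.6% of the desert peaks in every library. When start sites and bodies of those genes were also excluded, 18.0 Mb and 1064 peaks remained, and all 1064 were among the 13860. Read depth is not given in the peak lists. As a stand-in for depth, the genome-wide background pileup recovered from each list was divided by the smallest peak width of that list. Relative to control replicate 1, the result was 1, 1.32, 1.38 and 1.5 for control replicates 1 and 2 and si-N6AMT1 replicates 1 and 2. By this measure the si-N6AMT1 libraries were also the deeper libraries, and treatment and depth cannot be told apart.

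The highest ranked desert regions are shown as sequence, since those called in all 4 libraries were of a common kind and those called in a single group were mixed. Overlapping peaks of the 4 libraries were joined into regions, and regions were ranked by the lowest within-list percentile of the −log10 q value. Each line gives 100 bases centred on the highest summit, from the forward strand of GRCh37. Capitals mark runs of at least 20 purines or at least 20 pyrimidines, runs of at least 10 A or T, at least 6 copies of CA or TG, and, where a window held at least 3 copies, the pentamer GGAAT on either strand. The first 6 lines are the highest ranked regions called in all 4 libraries, the next 3 were called only in both control libraries, and the last 2 only in both si-N6AMT1 libraries.
chr21:9473640-9473739, nearest to TPTE: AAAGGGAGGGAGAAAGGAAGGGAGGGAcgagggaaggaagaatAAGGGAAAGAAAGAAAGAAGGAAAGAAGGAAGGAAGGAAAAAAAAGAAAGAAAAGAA
chr1:142538423-142538522, nearest to PPIAL4G: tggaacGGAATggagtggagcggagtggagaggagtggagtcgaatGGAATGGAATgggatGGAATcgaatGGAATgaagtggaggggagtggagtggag
chr2:91738376-91738475, nearest to RP11-685N3.1: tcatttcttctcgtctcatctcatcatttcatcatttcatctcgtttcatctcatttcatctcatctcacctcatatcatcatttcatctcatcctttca
chr21:28946313-28946412, between ADAMTS5 and N6AMT1: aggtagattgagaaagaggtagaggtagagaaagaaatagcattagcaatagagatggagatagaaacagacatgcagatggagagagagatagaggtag
chr16:26385815-26385914, between HS3ST4 and C16orf82: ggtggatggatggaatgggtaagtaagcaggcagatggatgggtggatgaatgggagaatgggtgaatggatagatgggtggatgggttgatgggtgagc
chr21:9552253-9552352, nearest to TPTE: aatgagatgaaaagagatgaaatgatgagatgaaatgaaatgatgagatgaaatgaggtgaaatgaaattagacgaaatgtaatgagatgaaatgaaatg
chr5:105471608-105471707, nearest to EFNA5, control only: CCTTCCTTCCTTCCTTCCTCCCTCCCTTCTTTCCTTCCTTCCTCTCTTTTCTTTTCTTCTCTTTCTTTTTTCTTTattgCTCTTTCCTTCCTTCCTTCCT
chr4:35363258-35363357, between PCDH7 and ARAP2, control only: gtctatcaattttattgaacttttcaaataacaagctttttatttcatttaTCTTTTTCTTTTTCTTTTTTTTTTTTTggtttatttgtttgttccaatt
chr21:9851040-9851139, nearest to TPTE, control only: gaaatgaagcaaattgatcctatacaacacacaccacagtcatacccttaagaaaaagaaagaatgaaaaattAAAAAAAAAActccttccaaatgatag
chr10:42387207-42387306, nearest to ZNF33B, si-N6AMT1 only: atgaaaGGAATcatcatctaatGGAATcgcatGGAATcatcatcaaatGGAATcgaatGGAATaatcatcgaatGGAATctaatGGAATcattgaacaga
chr5:18254625-18254724, between H3Y1 and CDH18, si-N6AMT1 only: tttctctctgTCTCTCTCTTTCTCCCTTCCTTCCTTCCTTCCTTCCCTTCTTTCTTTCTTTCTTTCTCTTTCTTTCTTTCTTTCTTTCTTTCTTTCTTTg

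All 6 windows called in every library were short tandem repeats, in which a base matched the base a few positions further on. At the best spacing, the match was 71.9% at 4 bases in the window at chr21:9473640-9473739, 80% at 5 bases near PPIAL4G, 68.4% at 5 bases near RP11-685N3.1, 68.1% at 6 bases between ADAMTS5 and N6AMT1, 61.5% at 4 bases between HS3ST4 and C16orf82, and 70.5% at 5 bases in the window at chr21:9552253-9552352. The strands were uneven in purines (A and G): purines made up 98%, 80%, 21%, 80%, 75% and 78% of the forward strand in the same order, so that in the third window the reverse strand was the purine-rich strand. The window near PPIAL4G held 5 copies of GGAAT, the pentamer from which human satellites 2 and 3 are built, and the si-N6AMT1-only window near ZNF33B held 7. In the control-only window near EFNA5 the longest pyrimidine run was 75 bases, and in the si-N6AMT1-only window between H3Y1 and CDH18 it was 89 bases, with only 2% purines in both. The other windows called in a single group were not tandem repeats by the measure used below: the best match was 52.5% between PCDH7 and ARAP2, 41.7% in the control-only window near TPTE and 46.3% near ZNF33B.

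The region between ADAMTS5, a protease of cartilage matrix, and N6AMT1 (chr21:28945858-28946837) lay 607 kb from the start site of ADAMTS5 and 1311 kb from that of N6AMT1. Its fold enrichment over background was 26.6 and 22.8 in the control libraries against 22.8 and 18.2 in the si-N6AMT1 libraries, with pileups of 55, 55, 54 and 45 fragments. The groups met at 22.8, so they were not separated by fold, and the pileups were not scaled to depth. The region between HS3ST4, a heparan sulfate sulfotransferase, and C16orf82 (chr16:26384941-26386379) had folds of 21.5 and 21.6 in the control libraries against 16.1 and 14.4 in the si-N6AMT1 libraries, and the groups did not overlap. Its pileup went the other way, from 43 and 50 fragments to 54 and 57, over a local background that stood at 1.05 and 1.36 for control but at 2.42 and 3.02 for si-N6AMT1. Of all desert peaks, 2.50% fell within 1000 kb of the longest assembly gap of a chromosome or of a chromosome end. The other 4 regions called in all 4 libraries lay in such sequence. The first of them (chr21:9473092-9474218) had folds of 24.6, 16.6, 16.8 and 14.9 and the region near PPIAL4G (chr1:142535508-142541422) was 5915 bp wide, with folds of 14.8, 14.1, 9.79 and 11.5.

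Among regions called in a single group, the region nearest to EFNA5, a ligand of Eph receptors that guides axons (chr5:105471399-105471886), had folds of 11.7 and 11.4 in the control libraries. The region between PCDH7, a protocadherin, and ARAP2 (chr4:35362953-35363613) had folds of 11.2 and 12.7. Neither had a called peak in a si-N6AMT1 library, which says that no enrichment passed the caller's threshold there and not that 6mA was absent. The third control-only region by rank lay near TPTE (chr21:9850921-9851380), with folds of 8.65 and 7.48. In si-N6AMT1 the region between H3Y1 and CDH18 (chr5:18254424-18254908) had folds of 12.7 and 8.34. The top si-N6AMT1-only region, near ZNF33B (chr10:42387046-42387415), was unlike it: its folds were 2.94 and 2.69, over a local background of 120 and 143 fragments with pileups of 354 and 387. The regions near ZNF33B and TPTE lay within 1000 kb of the longest assembly gap of a chromosome or of a chromosome end.

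The same sequence types were common at desert summits as a whole. A purine run of at least 20 bases on either strand was present in 33.7% and 30.5% of the 100-bp summit windows of the controls and in 35.1% and 31.7% of those of si-N6AMT1, against 1.91% to 2.09% of windows 1000 bp to each side. The 4 libraries lay together on this measure and the groups overlapped (32.1% ± 2.25 and 33.4% ± 2.38, SD, n = 2 each, exact permutation p = 0.667). A run of at least 10 A was found in 17.5% of summit windows on average and in 2.63% of the flanking windows. At least 6 copies of CA were found in 4.25% and 0.373%, respectively. At the summits, 44.7% of windows held at least 1 of these 3 features, against 4.26% of flanking windows. In each case summits were above flanks in 4 of 4 libraries (exact sign-flip p = 0.13, the smallest that 4 libraries allow). The features are not separate, since 49.0% of desert summits with an A run also held a purine run and 26.4% of those with a purine run also held an A run. Over all 100-bp windows of the deserts, the purine run was present in 1.70%, the A run in 2.35% and the CA repeat in 0.558%.

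A measure of short tandem repeats of any composition, chosen after the printed sequences had been seen, gave the same order. Windows in which at least 60% of bases matched the base at a fixed spacing of at most 10 bases made up 24.5% and 21.3% of desert summits in control, 21.7% and 19.2% in si-N6AMT1, and 1.05% of flanking windows on average (higher at summits in 4 of 4 libraries, exact sign-flip p = 0.13). Summits elsewhere on the autosomes held such repeats more often, at 26.0% on average, by 4.27 percentage points and in 4 of 4 libraries (exact sign-flip p = 0.13). Windows with at least 70% purines on either strand made up 50.2%, 47.4%, 50.2% and 46.4% of desert summits in the 4 libraries and 3.55% to 4.32% of their flanks. For this strand bias, desert summits and other summits differed by 1.06 percentage points (exact sign-flip p = 0.25).

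**Figure D1:**
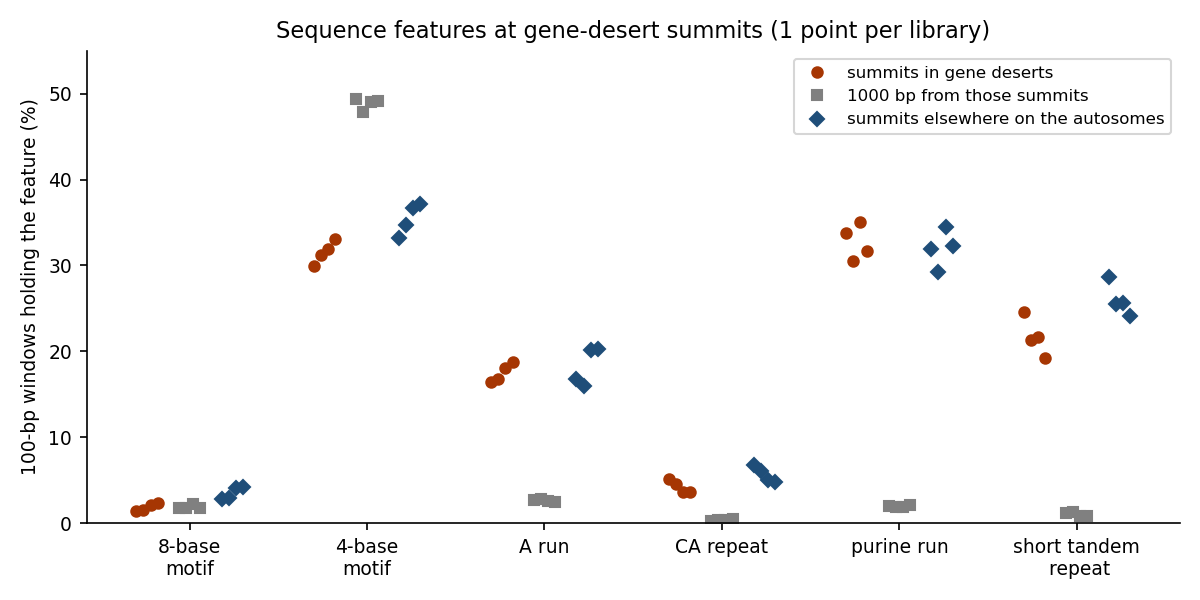
Share of 100-bp windows (%, vertical axis) that held each feature on either strand; each point is 1 library, for summits in gene deserts, windows 1000 bp from them and summits elsewhere on the autosomes. The 8-base motif is CAGGCTGG and the 4-base motif CAGG. Purine runs, A runs, CA repeats and short tandem repeats stand well above the flanks at desert summits in all 4 libraries, and CAGG stands below.

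Short motifs behaved otherwise. The word CAGG, which is also part of CAGGCTGG, was present on either strand in 29.9% and 31.2% of desert summits in the controls and 31.9% and 33.1% in si-N6AMT1, but in 48.9% of the flanking windows on average and in 47.8% of all desert windows. Summits were lower than flanks by 17.3 percentage points in 4 of 4 libraries (exact sign-flip p = 0.13). This was not particular to deserts, since CAGG was present in 35.5% of summits elsewhere on the autosomes, also below their flanks. The share at summits divided by that at flanks was 0.549 to 0.621 elsewhere and 0.607 to 0.672 in deserts. The ratio was the lower elsewhere in 4 of 4 libraries (exact sign-flip p = 0.13). The longer CAGGCTGG was present in 1.36% and 1.48% of desert summits in control against 2.07% and 2.31% in si-N6AMT1, against 1.89% of flanks and 1.72% of all desert windows. Its share was higher in both si-N6AMT1 libraries than in both control libraries (1.42% ± 0.0829 and 2.19% ± 0.170, SD, n = 2 each), with an exact permutation p of 0.33, the smallest that 2 against 2 libraries allow. At summits elsewhere the share was 3.51%, which was above the desert share in 4 of 4 libraries (exact sign-flip p = 0.13). Over all 100-bp windows of that sequence it was 4.57%. The shift between groups was also present at those summits, at 2.84% and 2.91% in the controls against 4.11% and 4.18% after si-N6AMT1. Its summit-minus-flank difference, −0.0812 percentage points in 100-bp windows, turned to 1.75 in 200-bp windows, and no direction can be given for it.

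Desert summits were poorer in G and C than both their flanks and other summits. Mean GC at the summit was 34.18%, 34.02%, 33.96% and 33.95% in control replicates 1 and 2 and si-N6AMT1 replicates 1 and 2, against 36.4% to 36.5% in the flanks. The difference from the flanks was −2.43 percentage points and that from summits elsewhere −3.19, both in 4 of 4 libraries (exact sign-flip p = 0.13 for each). Elsewhere the summits averaged 37.2% and their flanks 41.2%, so summits lay below flanks there too. Desert flanks differed from flanks elsewhere by −4.73 percentage points, more than the summits did. Relative to their own flanks, purine runs were 15.2 to 18.3 times as frequent at desert summits and 11.99 to 13.6 times at other summits. For A runs these ranges were 5.91 to 7.49 and 4.71 to 5.87, and for both features the desert ratio was the higher in 4 of 4 libraries (exact sign-flip p = 0.13). The summit shares themselves differed from those elsewhere with mixed signs over the libraries. A runs were at 17.5% in deserts and 18.3% elsewhere (exact sign-flip p = 0.375) and purine runs at 32.8% and 32.0% (exact sign-flip p = 0.25). The desert flanks were lower than flanks elsewhere, at 2.63% against 3.41% for A runs and 1.97% against 2.47% for purine runs. For CA repeats the ratios were 7.84 to 17.2 in deserts and 9.04 to 13.9 elsewhere (exact sign-flip p = 0.625). Between groups, A runs were present in 16.6% of control and 18.4% of si-N6AMT1 desert summits and CA repeats in 4.84% and 3.66%. Neither pair of groups overlapped, and for both the exact permutation p was 0.33. The same shifts stood at summits elsewhere, where A runs were at 16.7% and 15.96% in the controls against 20.2% and 20.3% after si-N6AMT1, and CA repeats at 6.71% and 6.13% against 5.08% and 4.78%.

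Deserts held about as many peaks per Mb as the rest of the autosomes. Desert density was 11.0 and 12.3 peaks per Mb in the control libraries against 12.9 and 14.4 in the si-N6AMT1 libraries, and that of the rest of the autosomes 11.0, 11.99, 14.1 and 14.7. The ratio of desert to other density was 1.00 and 1.03 in the controls and 0.912 and 0.976 in si-N6AMT1, with a mean of 0.979 (exact sign-flip p = 0.75). With lncRNA genes in the rule the direction turned, to a mean ratio of 1.15 (exact sign-flip p = 0.13). Just inside the limit, at 500 to 600 kb, the densities were 11.0, 11.4, 13.2 and 13.9 per Mb, and just outside it, at 400 to 500 kb, 10.2, 11.7, 12.4 and 14.2. The most distant desert summits lay 2618 to 2746 kb from a start site, and 942, 1130, 1124 and 1263 peaks lay over 1000 kb from one. Sequence inside protein-coding genes but at least 500 kb from any start site, which the rule leaves out, held 9.05, 9.78, 9.51 and 11.1 peaks per Mb.

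**Figure D2:**
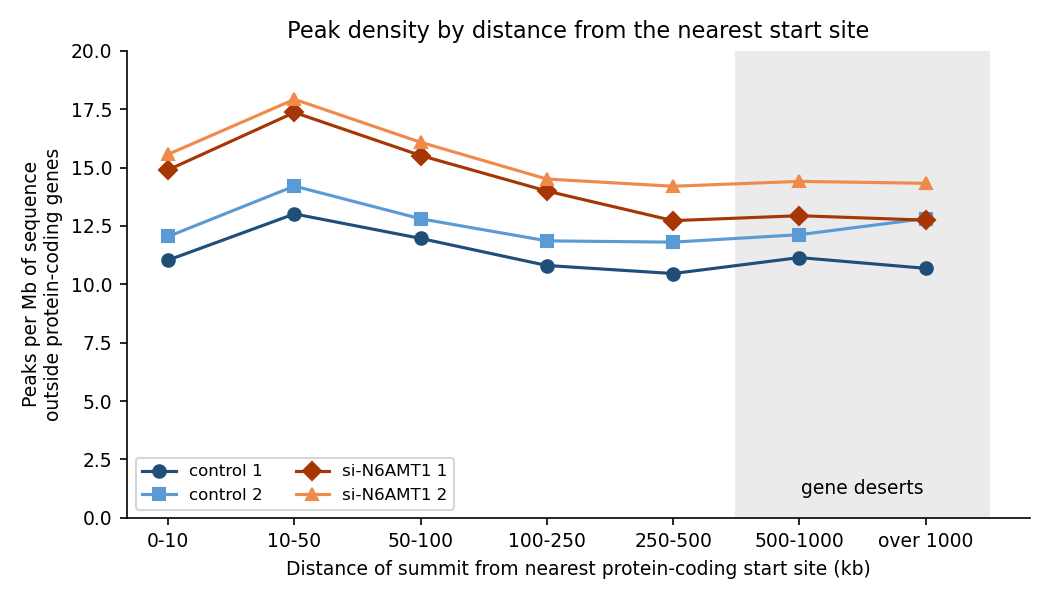
Peaks per Mb of sequence outside protein-coding genes (vertical axis) in bins of distance from the nearest protein-coding start site (kb, horizontal axis), 1 line per library; the shaded bins are the gene deserts. All libraries peak at 10 to 50 kb, and the gap between si-N6AMT1 and control narrows with distance, from a ratio of 1.32 at 0 to 10 kb to 1.15 beyond 1000 kb. In that last bin the groups overlap.

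Compared with intergenic sequence nearer to genes, deserts held fewer peaks per Mb in 4 of 4 libraries, at ratios from 0.861 to 0.977 (exact sign-flip p = 0.13). Compared with gene bodies they held more in 3 of 4 libraries, at ratios from 0.965 to 1.08 (exact sign-flip p = 0.25). Sequence elsewhere that was weighted to the GC content of the deserts, in 10-kb windows, had 11.6, 13.1, 14.1 and 15.3 peaks per Mb. Against that reference, desert density was lower in 4 of 4 libraries, at ratios of 0.944, 0.945, 0.912 and 0.941 (exact sign-flip p = 0.13). This comparison by GC content was added after the data had been seen.

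**Figure D3:**
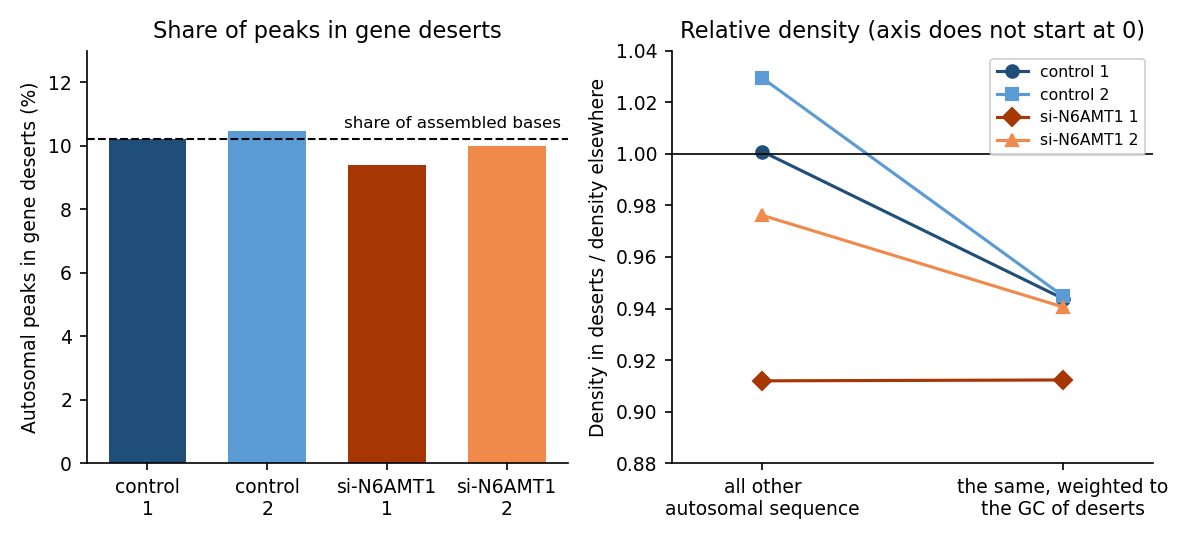
Left, percent of autosomal peaks that lay in gene deserts, 1 bar per library, with the desert share of assembled bases (10.2%) as a dashed line. Right, desert density divided by density elsewhere, before and after the rest was weighted to the GC content of deserts (axis from 0.88); the weighted ratios lie between 0.912 and 0.945.

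The number of desert peaks was higher after si-N6AMT1 than in control, but by less than elsewhere. Control libraries held 3197 ± 262 and si-N6AMT1 libraries 3733 ± 291 desert peaks (SD, n = 2 each), a difference of 536 and a ratio of 1.17, with no overlap between the groups (exact permutation p = 0.33). Elsewhere on the autosomes the ratio of densities was 1.26. Outside genes it stepped down with distance. It fell from 1.32 at 0 to 10 kb through 1.28 at 50 to 100 kb to 1.21 at 250 to 500 kb. At 500 to 1000 kb it was 1.18 and beyond that 1.15, where the groups overlapped (exact permutation p = 0.667). The share of autosomal peaks that lay in deserts was accordingly lower after si-N6AMT1, at 9.39% and 9.98%, than in control, at 10.2% and 10.5%. The difference of −0.655 percentage points separated the groups (10.3% ± 0.184 and 9.69% ± 0.421, SD, n = 2 each, exact permutation p = 0.33). When each list was limited to its 29495 strongest autosomal peaks, desert peaks numbered 3012 and 3100 in control against 2769 and 2918 in si-N6AMT1, so that the direction of the number turned. At equal length the number restates the share. List length was higher in the deeper libraries, and the part of depth in the number was not tested.

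The ratio of si-N6AMT1 to control density differed by GC content. In deserts the ratio of si-N6AMT1 to control density was 1.09 in 10-kb windows under 34% GC, 1.15 at 34 to 36%, 1.18 at 36 to 38% and 1.26 at 38 to 40%. In the rest of the autosomes it was 1.13, 1.15, 1.22 and 1.25 in the same windows. Above that the desert ratio lay below the other, at 1.20 against 1.304 for 40 to 42% and at 1.26 against 1.34 for 42 to 46%, and over 46% it was 1.48 against 1.29, on 3.92 Mb of desert. After weighting to the GC content of deserts, the ratio elsewhere was 1.19, close to 1.17 in the deserts. The desert-to-rest ratio was then 0.944 ± 0.000701 in control and 0.926 ± 0.02002 in si-N6AMT1 (SD, n = 2 each, exact permutation p = 0.33), where it had been 1.02 ± 0.0202 and 0.944 ± 0.0454 before. After weighting, si-N6AMT1 replicate 1 lay furthest from the other 3 libraries.

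**Figure D4:**
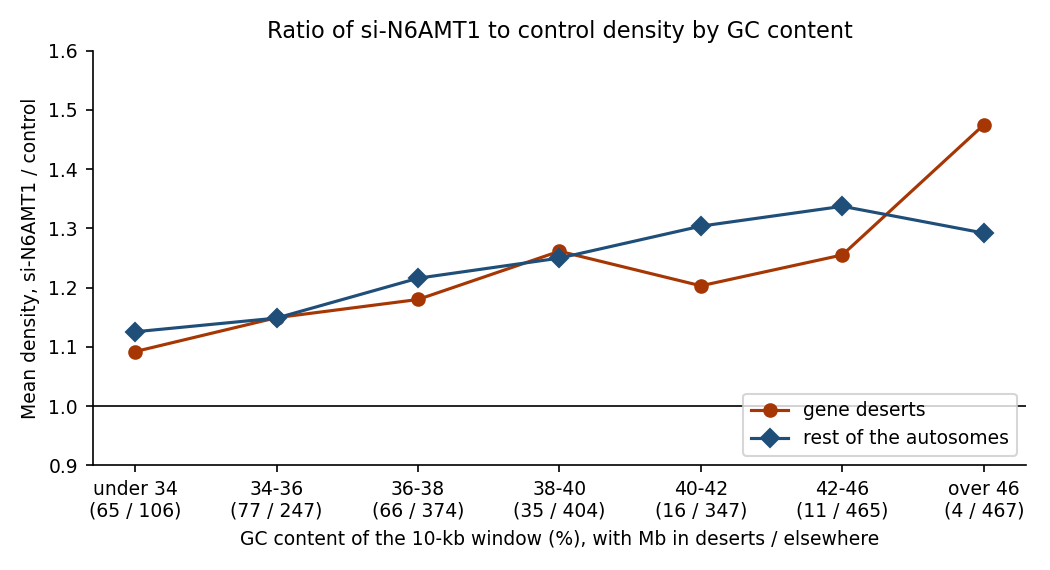
Mean peak density in si-N6AMT1 divided by that in control (vertical axis) by GC content of the 10-kb window (%, horizontal axis, with the Mb of desert and other sequence in brackets). The ratio rises from 1.09 under 34% GC to 1.26 at 38 to 40% in deserts, close to the line for the rest of the autosomes, and lies below that line from 40 to 46%; the last desert point rests on 3.92 Mb.

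Desert peaks were slightly narrower and weaker than other autosomal peaks. Their median width was 443, 436, 435 and 435 bp in the 4 libraries, with a mean difference of −9.13 bp from other peaks, and their median fold enrichment was 7.32, 6.78, 6.89 and 6.51, with a mean difference of −0.116. Both differences had the same sign in 4 of 4 libraries (exact sign-flip p = 0.13), but with lncRNA genes in the rule that in fold turned to 0.0927 (exact sign-flip p = 0.375). The median desert peak held 17 or 18 fragments at its summit in every library, and desert peaks covered 0.569% and 0.637% of desert bases in the controls and 0.666% and 0.740% in si-N6AMT1. Of the desert peaks of control replicates 1 and 2, 58.5% and 52.2% overlapped a peak of the other control library by at least 1 bp, and of those of si-N6AMT1 replicates 1 and 2, 56.1% and 50.4%. These shares were below those of other autosomal peaks in 4 of 4 libraries, by 1.96 percentage points on average (exact sign-flip p = 0.13). The difference was uneven, from −0.0182 points in control replicate 1 to −4.78 in si-N6AMT1 replicate 2.

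Joined across libraries, the desert peaks formed 7080 of 69942 autosomal regions. Of these, 1082 (15.3%, 95% Wilson interval 14.5% to 16.1%, counting error only) were called in all 4 libraries, against 16.9% of all autosomal regions. Regions called in 1 library only numbered 3488 (49.3%, against 49.4% of all autosomal regions). Regions called only in both control libraries numbered 237 (3.35%, against 2.63% of all autosomal regions), and those called only in both si-N6AMT1 libraries 369 (5.21%, against 5.85%). With lists of equal length the control-only regions numbered 321 (5.30%, against 4.07% of other regions) and the si-N6AMT1-only regions 242 (3.99%, against 4.18%).

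In the 1082 desert regions called in every library, fold enrichment was compared directly. The median fold was 8.50 and 8.06 in control against 8.04 and 7.90 in si-N6AMT1, and the median log2 ratio of si-N6AMT1 to control was −0.05, as it was for other regions. Both control values lay above both si-N6AMT1 values in 283 regions (26.2%, against 24.3% of all autosomal regions called in all 4 libraries), and both si-N6AMT1 values above both control values in 175 (16.2%, against 16.9%). Those shares were near the background. Pileup divided by the genome-wide background of its library, a measure added after the data had been seen, gave a median log2 ratio of −0.22 in deserts and −0.14 elsewhere. On that scale both control values lay above in 400 desert regions (37.0%, against 27.7%) and both si-N6AMT1 values above in 52 (4.81%, against 7.31%). The mean log2 difference between desert and other regions was −0.01 and 0.01 in the controls and −0.09 and −0.06 in si-N6AMT1, so the groups did not overlap (exact permutation p = 0.33). On the fold scale the same difference was −0.07 and −0.06 in control against −0.09 and −0.06 in si-N6AMT1 (exact permutation p = 0.667).

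Single deserts differed far more than the libraries did. Among 182 deserts of at least 0.5 Mb, 181 held a region, and the density ran from 0 to 74.5 regions per Mb, with a median of 24.2 and quartiles of 14.5 and 35.0. By assembled length, the 5 longest showed this range. The longest, between PCDH7 and ARAP2 (chr4:31222037-35746136), held 126 regions, with 54 and 60 peaks in the controls and 63 and 56 in si-N6AMT1. The next, between AGA, a lysosomal enzyme, and TENM3 (chr4:178863591-182664555), held 41 regions, with 22, 13, 15 and 17 peaks. The desert between CELF4, a splicing regulator, and PIK3C3, a lipid kinase of autophagy (chr18:35645790-39035199), held only 12 regions in 3.39 Mb, with 4, 4, 6 and 8 peaks. The desert between NCAM2 and MRPL39 (chr21:23152896-26479793) held 65 regions. That between the cadherin genes CDH9 and CDH6 (chr5:27538693-30693793), of 3.16 Mb, held 211, the most of any desert, with 106 and 123 peaks in control against 129 and 136 in si-N6AMT1, and 57 of its regions were called in all 4 libraries.

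The other deserts with most regions lay between OLFM4 and PRR20A (chr13:54102948-57215052, 157 regions), between SEL1L and FLRT2 (chr14:82500197-85496488, 136 regions), and between OTOL1 and SI, the gut sucrase (chr3:161714596-164296284, 135 regions). The highest density, 74.5 regions per Mb, was in the desert between NAALADL2 and TBL1XR1, a subunit of a corepressor complex (chr3:175528337-176414266), with 40, 39, 38 and 48 peaks. The CDH9 to CDH6 desert followed at 66.9 per Mb, then those between CHORDC1 and FAT3, an atypical cadherin (chr11:90456245-91457984, 64.9), between JRKL and CNTN5, a contactin (chr11:96623177-98391679, 62.8), and between CDH10 and CDH9 (chr5:25145087-26538693, 62.4). None of these was within 1000 kb of the longest assembly gap of its chromosome or of a chromosome end.

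Density moved with the local background of the same deserts. The local background at a peak is the coverage that the caller expected there, and it cannot fall below the genome-wide value. Whether it was taken from an input library or from the immunoprecipitated reads themselves is not given. Its median over the peaks of a desert, relative to the genome-wide value and averaged over the 4 libraries, was 2.58 in the NAALADL2 to TBL1XR1 desert, 2.06 from CDH9 to CDH6, 1.97 from CDH10 to CDH9, 1.89 from CHORDC1 to FAT3 and 1.81 from JRKL to CNTN5, against a median of 1.09 over the 181 deserts. It was 1.10 from PCDH7 to ARAP2, 1.03 from AGA to TENM3 and 1.01 from CELF4 to PIK3C3. Over the 181 deserts Spearman's rho between background and regions per Mb was 0.71 (Pearson's r 0.71), and between GC content and regions per Mb −0.26 (Pearson's r −0.23). These are descriptions across sites that share the same 4 libraries. The part of the background in the density was not tested.

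**Figure D5:**
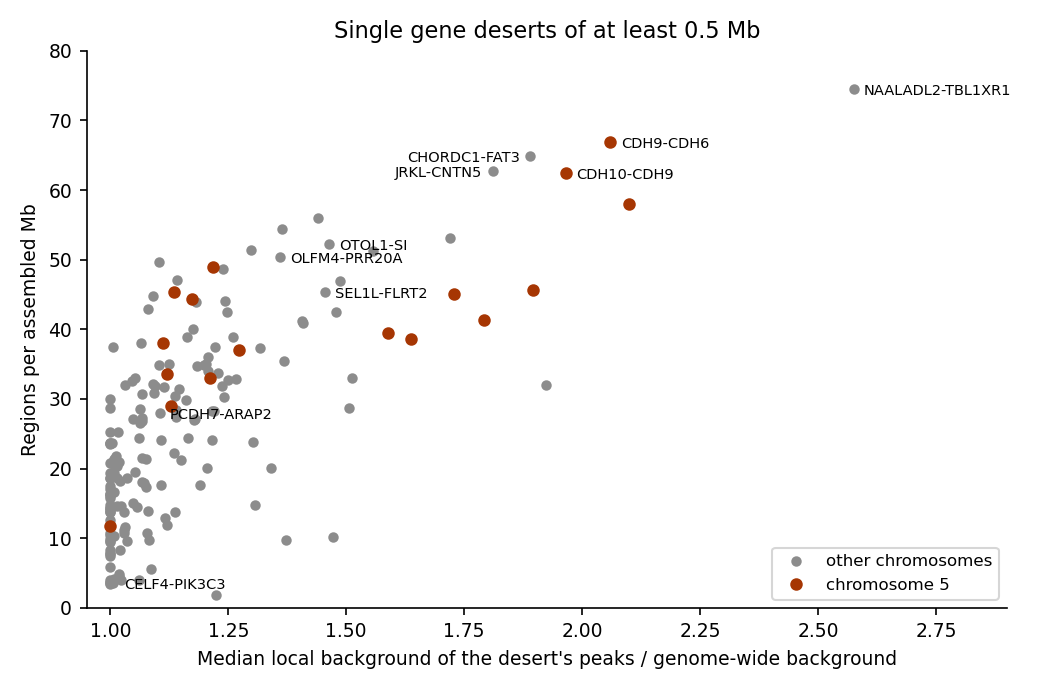
Regions per assembled Mb (vertical axis) against the median local background of the desert's peaks relative to the genome-wide background (horizontal axis, mean of the 4 libraries), for the 181 deserts of at least 0.5 Mb with a region; labels give the flanking genes. The deserts above 60 regions per Mb all have a background above 1.8.

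By chromosome, deserts were denser than the rest on 10 of 22 chromosomes and less dense on the others. Chromosome 5 stood out, with 2051 desert peaks at 21.1 per Mb, as the mean of the 4 libraries, against 14.8 in its other sequence. Its desert densities were 18.2 and 20.5 per Mb in the controls and 22.4 and 23.3 in si-N6AMT1, and the relative local background at desert peaks was 1.71, against 1.39 at its other peaks. Chromosome 18 had the lowest desert density, 2.38 per Mb, against 3.39 in its other sequence, both at a relative background of 1. On chromosome 19, where deserts covered only 1.47 Mb, the 26 desert peaks gave 4.41 per Mb against 13.8. The ratio of si-N6AMT1 to control peaks in deserts was above 1 on all 22 chromosomes and below that of the rest on 16.

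Desert regions were also grouped by the nearest protein-coding gene. Cadherin and protocadherin genes were nearest to some desert sequence in 18 cases, 17 of them with a region, and 641 regions (9.05% of desert regions) lay nearest to them, against 7.19% of desert bases. Peak density in this sequence was 14.8 and 16.1 per Mb in control against 17.7 and 19.2 in si-N6AMT1. The excess lay on chromosome 5, where the 5 genes of the list had 31.3, 33.9, 36.9 and 39.2 peaks per Mb at a relative background of 2.04. The other 13 genes had 7.87, 8.66, 9.60 and 10.8 peaks per Mb at a relative background of 1.08, which was below the 10.3, 11.6, 11.95 and 13.5 of all deserts off chromosome 5. The genes with most nearest regions were CDH9 (141), CDH6 (110), FLRT2, an adhesion protein (106), and PCDH7 (104). Of 15 developmental transcription factor genes that were nearest to some desert sequence, 13 had a region. Their 133 regions (1.88% of desert regions, against 2.07% of desert bases) had 11.3, 12.7, 13.05 and 13.8 peaks per Mb, near the values of all deserts. Among them were NR2F1, an orphan nuclear receptor, with 25 regions, SOX9, a factor of cartilage and testis, with 13, and GATA3, a luminal breast factor, with 2.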

How the data were processed

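DNA of MDA-MB-453 cells was sonicated, denatured and precipitated with an antibody against 6mA. Per the labels and the study's methods, the authors trimmed raw data with the Solexa pipeline, filtered low-quality reads with Trimmomatic, used Bowtie2 2.3.5 for alignment to hg19, removed duplicates with SAMtools 1.9 and called peaks with MACS2 at p below 1e-05, in each library separately. The use of the input libraries in each call is not given in the sources used here, and the inputs were not analysed here. The deposited lists give per peak a score, a fold ratio over background, and −log10 p-values and −log10 q-values. The authors' score was not used. Pileup and background were recovered from the deposited fold ratio and −log10 p-value, and 100% of autosomal pileups came out whole within 0.02.

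Summits were annotated with GENCODE 44 basic transcripts on GRCh37. The rule did not say whose start sites count, so protein-coding genes were used, with lncRNA genes added as an alternative. Densities used assembled bases. Groups were compared over libraries with exact two-sided permutation tests (6 assignments, smallest p 0.33), and deserts with other sequence with exact two-sided sign-flip tests over the 4 libraries (smallest p 0.13), so no test here could pass 0.05. Regions were joined at 1 bp of overlap and placed by the summit of highest −log10 p. Named regions were the 6 highest ranked in all libraries and the 3 in each group, and named deserts the 5 longest, the 5 with most regions and the 5 of at least 0.5 Mb with most regions per Mb. Members and lists were chosen with earlier results of these data known. The GC weighting, the scaled pileup, the repeat and purine-share measures, the share with any of 3 features, the bins next to the distance limit and the local background by desert were added after the data had been seen. Some results that the naming rule selected are not reported here. Scripts ran in Python 3.11.15 with pandas 2.3.3, numpy 2.4.6 and scipy 1.17.1 and were tested on simulated data.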

Additional observations from a re-analysis of the deposited data

How the results depend on the processing

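Of the alternative values, 131 kept their direction and met any size limit set, 22 passed such a limit and 8 changed direction. The 22 were all region counts, shares called in all libraries or replicate overlaps. For the other results a kept sign was enough, whatever the size of the change. The si-N6AMT1 minus control number of desert peaks, 536 by the main rule, was 1097.5 with 250 kb and 12 with lncRNA genes. Both values counted among the 131. So did values that could not change, namely the replicate-block differences and the replicate overlap of a group when a library of the other group was left out. With lists of equal length, the si-N6AMT1 minus control number of desert peaks became −212.5 and the si-N6AMT1-only regions 242. With a distance of 250 kb, control-only and si-N6AMT1-only regions numbered 410 and 720, and with 1000 kb 82 and 123, since more or less sequence then counts. With lncRNA genes in the rule they numbered 20 and 21, 17.3% of regions were called in all 4 libraries, the desert to rest density ratio was 1.15, the difference in median fold was 0.0927 and that in CAGGCTGG was 0.0957 percentage points. The last was 0.0101 without sequence near the longest assembly gaps and chromosome ends, and 1.75 in 200-bp windows. With an overlap of 50% of each peak, 13.3% of regions were called in all libraries and 48.5% of si-N6AMT1 desert peaks were replicated. When 1 library was left out, the density ratio ranged from 0.962 to 1.00 (1.0019 without si-N6AMT1 replicate 1), the CAGGCTGG difference from −0.303 to 0.0301 (0.0301 without control replicate 1), the control-only regions from 438 (without si-N6AMT1 replicate 1) to 1047 (without control replicate 1), the si-N6AMT1-only regions from 606 to 1551 (the same libraries in the reverse order), and the share called in all remaining libraries from 21.0% to 21.7%. The counts rise then because fewer libraries must call or lack a peak. A replicate block leaves the mean differences unchanged by construction. With it, 536 peaks and −0.655 percentage points each had an exact sign-flip p of 0.5, the smallest 2 pairs allow. Deviations of same-numbered libraries correlated at 0.04 over the 1082 desert regions called in all libraries, and the labels give the number alone. Where not stated above, the cause was not tested. The lists hold called peaks without read totals, so weak enrichment in a shallower library is not detectable.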
